A study of Mus musculus with 7 samples.

Results

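MHC class I molecules carry short peptides from inside a cell to its surface. Their expression machinery was followed here through 10 genes chosen by function, with earlier results of these data known. These were the heavy chain genes H2-K1 and H2-D1, the light chain gene B2m, the peptide transporter genes Tap1 and Tap2, the loading factor gene Tapbp, the trimming enzyme gene Erap1 and the immunoproteasome genes Psmb8, Psmb9 and Psmb10. The array held 26 probe sets that name 1 of these genes alone, among 20379 such probe sets for 12393 genes. A further 3 probe sets name a member together with another gene and are given apart.

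RNA came from CD11c-positive cells separated magnetically from mouse spleen on day 7 after an allogeneic hematopoietic stem cell transplant, that is, a transplant from a genetically different donor. The groups were 3 arrays of Atg16l1 hypomorph mice, whose copy of this autophagy gene works only in part, and 4 arrays of wild-type mice. All 7 were C57BL/6J by label, and the labels give 9 weeks of age at collection where the series design gives 8 weeks. The sources used here do not give the donor's strain or MHC type, the nature of the hypomorph allele, or which of donor and recipient carried it. Arrays are not stated to come from separate animals, so p-values measure the spread between samples, which may be technical.

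In the class I pathway the proteasome cuts cytosolic proteins into peptides, and interferon gamma exchanges its catalytic subunits for those of the immunoproteasome. The TAP transporter, a pair of ABC proteins, moves the peptides into the endoplasmic reticulum. There tapasin, the product of Tapbp, holds the empty class I molecule beside the transporter, and Erap1 trims peptides to length. Antigen-presenting cells show the loaded molecules to CD8 T cells, and after an allogeneic transplant class I molecules are themselves targets of T cells from the other individual. The heavy chain genes are polymorphic and belong to a large family of near-identical copies, so their probe sets can share signal.

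Of the 10 genes, 7 lie on chromosome 17. Psmb9, Tap1, Psmb8 and Tap2 follow one another there with no other protein-coding gene between (RefSeq, GRCm38.p6). RefSeq promoter windows of this build were matched for 9 members, all but Tap2, and the 250 bases before the listed start were searched on both strands for 4 motifs. The motifs were the interferon regulatory factor core AANTGAAA, the NF-kB consensus, the cAMP response element core TGACG and the box CCAAT. The first is held by 5.7% of all 32851 windows of this length, the second by 7.25%, the third by 17.8% and the fourth by 33.8%. Each window below is written in the gene's own direction with matches in capitals. Matches of different motifs did not overlap. In H2-K1 and H2-D1 the NF-kB run matches the consensus on both strands, at neighbouring positions. The first 3 belong to the chains of the class I molecule, and the last to the start region that Tap1 shares with Psmb9. H2-K1 lies at chr17:34000348-34000597 on the minus strand, H2-D1 at chr17:35262844-35263093, B2m at chr2:122147437-122147686 and Tap1 at chr17:34187306-34187555, each on the plus strand.
H2-K1: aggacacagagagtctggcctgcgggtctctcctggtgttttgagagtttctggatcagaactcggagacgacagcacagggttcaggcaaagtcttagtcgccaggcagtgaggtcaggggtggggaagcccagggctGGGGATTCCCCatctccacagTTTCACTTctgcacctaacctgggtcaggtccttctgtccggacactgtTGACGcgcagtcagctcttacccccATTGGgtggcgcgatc
H2-D1: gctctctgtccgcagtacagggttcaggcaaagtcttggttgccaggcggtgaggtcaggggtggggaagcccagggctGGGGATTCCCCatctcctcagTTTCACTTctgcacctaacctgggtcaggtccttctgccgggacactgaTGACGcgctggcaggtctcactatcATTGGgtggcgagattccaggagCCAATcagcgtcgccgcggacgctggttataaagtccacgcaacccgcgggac
B2m: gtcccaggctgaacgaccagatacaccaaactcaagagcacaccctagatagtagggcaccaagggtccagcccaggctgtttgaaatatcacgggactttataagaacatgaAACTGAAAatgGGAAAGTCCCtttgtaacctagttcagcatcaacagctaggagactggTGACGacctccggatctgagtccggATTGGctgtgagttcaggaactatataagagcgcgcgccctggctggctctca
Tap1: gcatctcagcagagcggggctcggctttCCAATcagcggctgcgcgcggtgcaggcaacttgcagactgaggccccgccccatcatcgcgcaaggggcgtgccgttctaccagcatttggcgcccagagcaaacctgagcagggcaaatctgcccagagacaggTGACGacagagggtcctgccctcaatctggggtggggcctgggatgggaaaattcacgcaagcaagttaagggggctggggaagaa

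The chains of the class I molecule, H2-K1, H2-D1 and B2m, each held all 4 motifs, and these were the 3 members of 9 with the interferon core or the NF-kB consensus. In H2-K1 and H2-D1 the NF-kB run came first, then the interferon core, TGACG and CCAAT, while in B2m the interferon core preceded the NF-kB run. Aligned to each other, the H2-K1 and H2-D1 windows were identical at 166 of 190 bases, or 87.4%. RefSeq lists a second H2-K1 start nearby, whose window holds the same runs and 1 more CCAAT. The windows of Tap1 and Psmb9 read the same stretch from opposite strands and overlapped by 225 bases. Both held 1 TGACG and 1 CCAAT. Tapbp held CCAAT alone, and Psmb8, Psmb10 and Erap1 held 0 of the motifs in these windows. A match describes letters and is no evidence of binding.

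Values are log2 signals as deposited, with array medians from 5.46 to 5.53 and lower quartiles from 3.31 to 3.39. Of the 26 member probe sets, 20 read above the array median on all 7 arrays and 3 below the lower quartile on all of them. The gene altered by design, Atg16l1, read 6.86, 6.76 and 6.94 in hypomorphs and 7.42, 7.33, 7.26 and 7.20 in wild type, without overlap (change -0.45, limma adjusted p = 0.462). CD11c itself (Itgax) read 7.98 to 8.48 in hypomorphs and 7.98 to 8.33 in wild type. Of 9 measured dendritic cell markers, Cd209a lay near the lower quartiles, at 2.90 to 3.39 in hypomorphs and 3.07 to 3.14 in wild type. The summed signal of the dendritic cell markers spanned 12.0 to 12.41 in hypomorphs and 11.86 to 12.23 in wild type. That of 8 red pulp macrophage markers spanned 14.86 to 15.12 in hypomorphs and 14.3 to 15.11 in wild type, and that of 6 T cell markers reached 11.39 to 11.73 in hypomorphs and 11.12 to 12.07 in wild type. In such a mixed fraction, fewer cells of a type and less RNA per cell cannot be told apart.

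The clearest difference lay in the heavy chain genes. H2-K1 and H2-D1 read higher in hypomorphs on 6 of their 13 probe sets, by 0.29 to 0.53 on the log2 scale, with no overlap between the groups. The 13 probe sets of the other 8 genes gave 0 without overlap. Of the member probe sets 23.1% were higher without overlap and 0 lower, against 3.07% higher and 2.5% lower of all 22625 probe sets. At an unadjusted p under 0.05 in limma, 6 member probe sets were higher and 0 lower, where 4.35% of all probe sets were higher and 3.34% lower. After Benjamini-Hochberg adjustment over all probe sets, 0 members and 0 probe sets of the array passed 0.05, which is 0% in each direction. The lowest adjusted p among members was 0.644. The 13 heavy chain probe sets measure closely related transcripts and are not independent. The members were chosen with earlier results of these data known, so their shares beside those of all probe sets are a description.

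**Figure D1:**
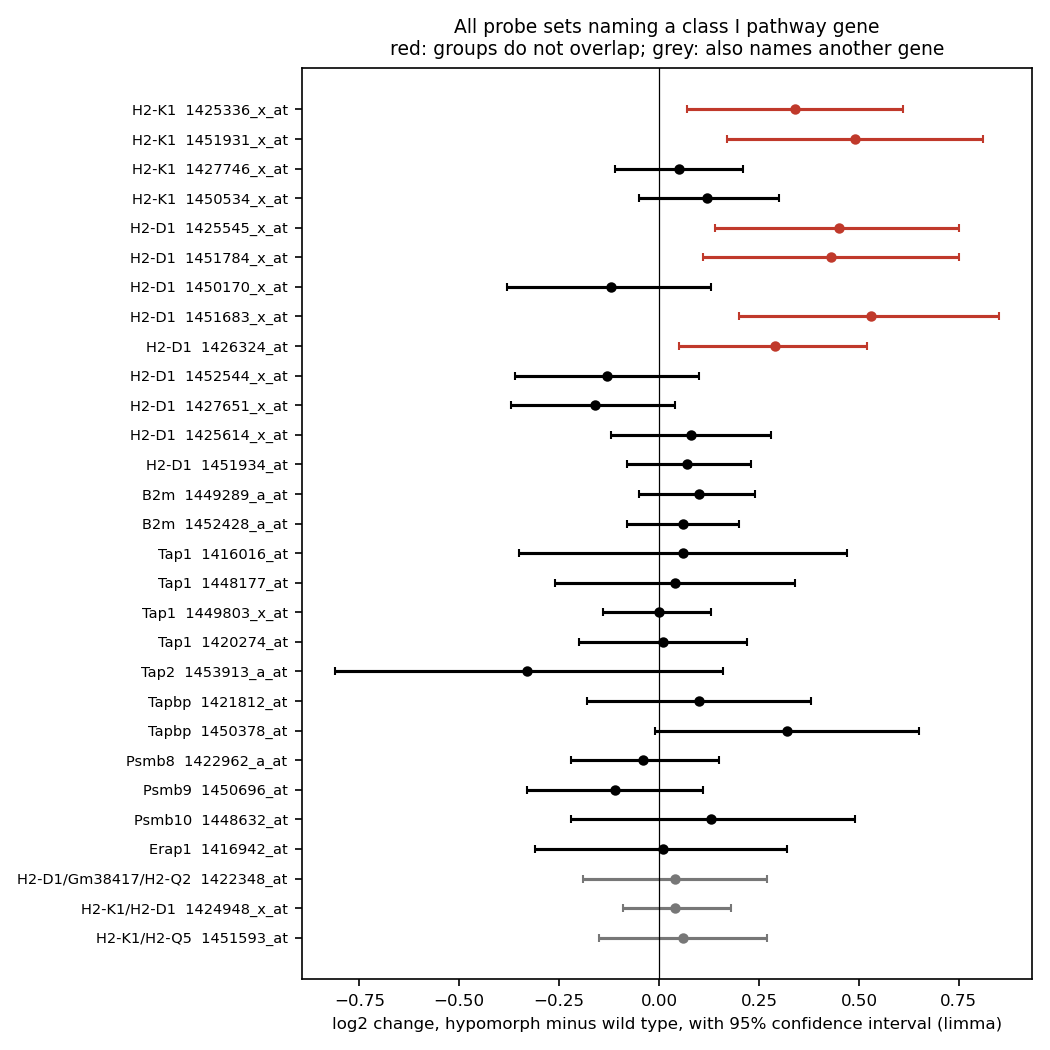
Log2 change, hypomorph minus wild type, with its 95% confidence interval from limma, for every probe set naming a member (3 hypomorph and 4 wild-type arrays). The 6 probe sets without overlap between groups (red) all belong to H2-K1 or H2-D1 and lie between 0.29 and 0.53, and the grey ones also name another gene.

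H2-K1, which encodes the heavy chain H2-K, was measured by 4 probe sets, all with a suffix that marks probes matching other transcripts as well. The brightest, 1425336_x_at, read 12.36, 12.07 and 12.28 on hypomorph arrays 1, 2 and 3, against 11.65, 11.96, 11.89 and 12.06 on wild-type arrays 1 to 4. Hypomorph array 2 lay just above wild-type array 4. The change was 0.34 (95% confidence interval 0.07 to 0.61, limma adjusted p = 0.644), or 1.27-fold, with an exact two-sided permutation p of 0.0571.

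The second bright H2-K1 probe set, 1451931_x_at, separated the groups more widely. It read 12.12, 11.71 and 11.92 in hypomorphs and 11.16, 11.60, 11.39 and 11.55 in wild type. The change was 0.49 (0.17 to 0.81), or 1.4-fold, with the exact permutation p at 0.0286, the smallest that 35 splits of 7 arrays allow, and a limma adjusted p of 0.644. The remaining pair did not separate the groups. Probe set 1427746_x_at read 10.69, 10.60 and 10.60 in hypomorphs and 10.66, 10.49, 10.57 and 10.59 in wild type, a change of 0.05 (-0.11 to 0.21). Probe set 1450534_x_at, dimmer at 5.97 to 6.20 in hypomorphs and 5.90 to 5.99 in wild type, had a change of 0.12 (-0.05 to 0.30).

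H2-D1, the gene of the heavy chain H2-D, had 9 probe sets, of which 4 were higher without overlap. Probe set 1425545_x_at read 12.59, 12.21 and 12.36 in hypomorphs, against 11.66, 12.07, 11.94 and 12.08 in wild type, a change of 0.45 (0.14 to 0.75) or 1.36-fold. Probe set 1451784_x_at gave nearly the same values, 12.53, 12.20 and 12.37 in hypomorphs and 11.60, 12.07, 12.00 and 12.07 in wild type, a change of 0.43 (0.11 to 0.75). On both, hypomorph array 1 was the highest and wild-type array 1 stood well below the rest.

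The largest H2-D1 change came from 1451683_x_at, which read 9.81, 9.29 and 9.61 in hypomorphs and 8.83, 9.05, 9.12 and 9.18 in wild type. It was 0.53 higher (0.20 to 0.85), or 1.44-fold. These 3 probe sets each had an exact permutation p of 0.0286 and a limma adjusted p of 0.644. Probe set 1426324_at, the brightest H2-D1 set without the cross-matching suffix, read 8.03, 7.77 and 7.89 in hypomorphs, against 7.65, 7.74, 7.65 and 7.41 in wild type. Its change was 0.29 (0.05 to 0.52), with an exact permutation p of 0.0571 and a limma adjusted p of 0.644.

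The other H2-D1 probe sets had overlapping groups, with changes between -0.16 and 0.08. Bright probe set 1450170_x_at read 11.52, 11.51 and 11.52 in hypomorphs and 11.83, 11.46, 11.79 and 11.48 in wild type. Its hypomorph values lay between a high pair of wild-type arrays (1 and 3) and a low pair (2 and 4), and the change was -0.12 (-0.38 to 0.13). Probe sets 1452544_x_at and 1427651_x_at had changes of -0.13 (-0.36 to 0.10) and -0.16 (-0.37 to 0.04). The dimmest, 1425614_x_at and 1451934_at, had 0.08 and 0.07, and the last of them lay below the lower quartile of all arrays.

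For H2-D1, then, 6 probe sets had positive and 3 negative changes, the intervals of all 3 spanning 0, while all 4 of H2-K1 were positive. The heavy chains differ between strains, and whether these probes read donor and recipient alleles alike was not tested, nor was the mix of donor and recipient cells. Taken within each array, 1425545_x_at minus 1450170_x_at was 1.07, 0.70 and 0.84 in hypomorphs and -0.16, 0.61, 0.16 and 0.60 in wild type. The size of such a difference depends on the probes, and only its course over arrays can be read. The gap was narrowest on wild-type arrays 1 and 3 and widest on hypomorph array 1. These probe sets were set against each other after their values were seen, so no test is given.

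The probe sets that name a member with another gene had overlapping groups. The one naming both H2-K1 and H2-D1 read 10.69, 10.61 and 10.60 in hypomorphs and 10.60, 10.57, 10.58 and 10.60 in wild type, a change of 0.04 (-0.09 to 0.18). Those naming H2-D1 with H2-Q2 and Gm38417, and H2-K1 with H2-Q5, had changes of 0.04 and 0.06 and read below the array medians.

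Markers of other cells varied over the same arrays. The median deviation of 8 macrophage markers from their wild-type means was 0.42, 0.14 and 0.31 on the hypomorph arrays and -0.51, 0.22, -0.17 and 0.38 on the wild-type arrays. Wild-type arrays 1 and 3 were lowest for these markers, and wild-type array 1 was also lowest on 5 of the 6 heavy chain probe sets without overlap. All 8 macrophage markers had a positive change, with a median of 0.29, and 0 passed the adjusted threshold. Of 7 neutrophil markers 0 were positive, with a median change of -0.53, and the deviations were -0.64, -0.69 and 0.05 in hypomorphs and -0.20, -0.01, 0.07 and 0.04 in wild type. Of 4 B cell markers 1 was positive, with a median of -0.37, and of 5 erythroid markers 1 was positive, with a median of -0.80. The positive erythroid marker, Hba-a1, lay below the lower quartile of all arrays. Hypomorph array 3 stood apart for erythroid markers, whose summed signals were 9.96, 11.56 and 8.05 in hypomorphs and 10.42 to 11.22 in wild type. For 6 T cell markers, of which 4 were positive with a median of 0.02, the deviations were 0.01, 0.17 and -0.17 in hypomorphs and 0.53, -0.39, 0.07 and -0.19 in wild type. Wild-type arrays 1 and 3, the highest on H2-D1 probe set 1450170_x_at, were the upper pair among wild-type arrays for T cell markers. Hypomorph array 2 was above wild-type array 3 for these markers, at 0.17 beside 0.07. On that probe set it was lower, at 11.51 beside 11.79. Of 7 pancreatic acinar markers, from tissue next to the spleen, 1 was positive, the median change was -2.15, and the deviations were -2.66, -2.90 and -0.86 in hypomorphs and -2.10, -0.74, 1.04 and 1.82 in wild type. Natural killer and cytotoxic cell markers, of which 5 were measured, had 3 positive changes and a median of 0.16. Their deviations were 0.03, 0.22 and 0.06 in hypomorphs and 0.28, -0.22, 0.08 and -0.04 in wild type. The part of all these cells in the heavy chain values was not tested.

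**Figure D2:**
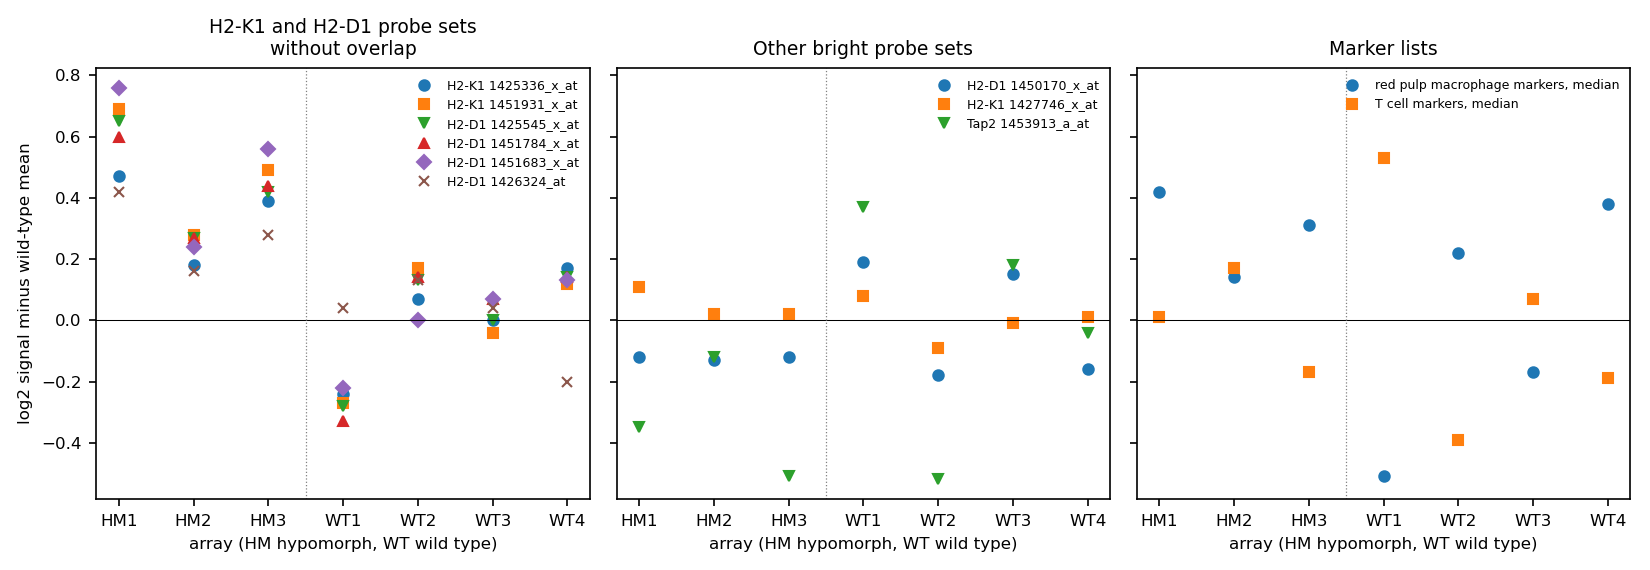
Log2 signal minus the wild-type mean for each of the 7 arrays, hypomorph left of the dotted line and wild type right of it. Left, the 6 heavy chain probe sets without overlap. Middle, H2-D1 1450170_x_at, H2-K1 1427746_x_at and Tap2, picked after their values were seen. Right, the medians of the macrophage and T cell marker lists, at -0.51 and 0.53 on wild-type array 1.

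B2m, which encodes the beta2-microglobulin light chain that every classical class I molecule needs, differed by at most 0.10 between groups. Its brighter probe set, 1449289_a_at, read 13.44, 13.35 and 13.37 in hypomorphs and 13.26, 13.30, 13.35 and 13.26 in wild type. Hypomorph array 2 and wild-type array 3 were level, and the other hypomorph arrays lay above all wild-type arrays. The change was 0.10 (-0.05 to 0.24, limma adjusted p = 0.692, exact permutation p = 0.0857). The second, 1452428_a_at, read 13.14 to 13.26 in hypomorphs and 13.10 to 13.15 in wild type, a change of 0.06 (-0.08 to 0.20).

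The transporter genes had changes of opposite sign, with overlapping groups, but the sign for Tap1 depended on hypomorph array 1. Tap1, the first of the transporter's chains, read 9.70, 9.16 and 8.95 in hypomorphs and 9.42, 9.23, 9.12 and 9.09 in wild type on its bright probe set, a change of 0.06 (-0.35 to 0.47, limma adjusted p = 0.945). Hypomorph arrays were both the highest and the lowest of the 7, and without hypomorph array 1 the change was -0.16. Of the other Tap1 probe sets, 1448177_at was dim with a change of 0.04, and 1449803_x_at and 1420274_at lay below the lower quartile of all arrays, with changes of -0.00 and 0.01. Tap2, the partner chain, had 1 probe set, which read 7.68, 7.91 and 7.52 in hypomorphs, against 8.40, 7.51, 8.21 and 7.99 in wild type. Its change was -0.33 (-0.81 to 0.16, limma adjusted p = 0.695), the lowest of the 26. Wild-type array 2 lay with the hypomorphs while the other wild-type arrays lay above them. Without wild-type array 2 the change was -0.50, and without wild-type array 1 it was -0.20.

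Tapbp had a bright probe set, 1421812_at, with 10.71, 10.26 and 10.30 in hypomorphs and 10.46, 10.27, 10.30 and 10.26 in wild type. The change of 0.10 (-0.18 to 0.38) rested on hypomorph array 1 and was -0.05 without it. The dimmer one, 1450378_at, read 6.79, 6.29 and 6.21 in hypomorphs and 6.03, 6.21, 6.03 and 6.16 in wild type, a change of 0.32 (-0.01 to 0.65, limma adjusted p = 0.644), or 0.14 without hypomorph array 1. Erap1 read 8.48, 8.02 and 7.99 in hypomorphs and 8.04, 8.30, 8.07 and 8.22 in wild type. Its group means were both 8.16, with a change of 0.01 (-0.31 to 0.32), and hypomorph array 1 was again the highest.

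**Figure D3:**
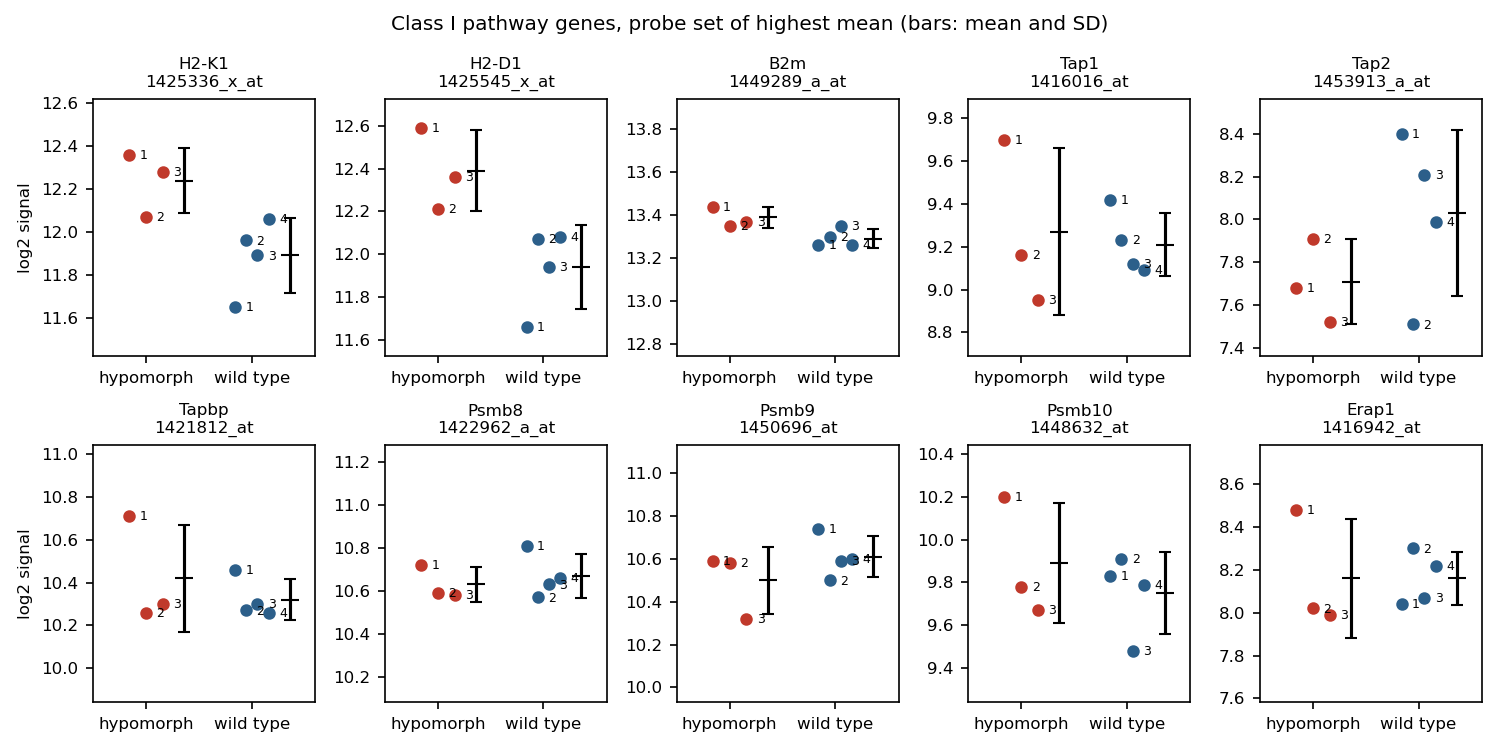
Log2 signal of the probe set of highest mean for each of the 10 genes, 3 hypomorph arrays (red) left of 4 wild-type arrays (blue), numbered by replicate, with mean and SD as bars. Every panel spans 1.2 log2 units. H2-K1 and H2-D1 are the pair without overlap, both higher, beside 301 genes higher and 337 lower without overlap of 12393 measured. Hypomorph array 1 is the highest point in 7 of the 10 panels.

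The immunoproteasome genes had changes between -0.11 and 0.13, with overlapping groups. Psmb8, the chymotrypsin-like subunit, read 10.72, 10.59 and 10.58 in hypomorphs and 10.81, 10.57, 10.63 and 10.66 in wild type, a change of -0.04 (-0.22 to 0.15, limma adjusted p = 0.918). Psmb9, which sits beside Tap1, read 10.59, 10.58 and 10.32 in hypomorphs and 10.74, 10.50, 10.59 and 10.60 in wild type, a change of -0.11 (-0.33 to 0.11). Psmb10 read 10.20, 9.78 and 9.67 in hypomorphs and 9.83, 9.91, 9.48 and 9.79 in wild type, a change of 0.13 (-0.22 to 0.49). The widest of these intervals reaches 0.49 on the log2 scale.

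Each immunoproteasome subunit takes the place of a constitutive one, Psmb8 that of Psmb5, Psmb9 that of Psmb6 and Psmb10 that of Psmb7. Psmb5 read 9.20, 9.26 and 9.23 in hypomorphs and 9.41, 9.38, 9.33 and 9.33 in wild type. It was lower without overlap by 0.13 on the log2 scale (exact permutation p = 0.0286, limma adjusted p = 0.644). Psmb6 and Psmb7 had changes of -0.03 (-0.21 to 0.15) and 0.03 (-0.18 to 0.25). The within-array difference of log2 signals, Psmb8 minus Psmb5, was 1.52, 1.33 and 1.34 in hypomorphs and 1.40, 1.19, 1.30 and 1.33 in wild type. It was 0.10 higher in hypomorphs, with overlapping groups (exact permutation p = 0.314). For Psmb9 minus Psmb6 the group difference was -0.08 (exact permutation p = 0.429) and for Psmb10 minus Psmb7 it was 0.10 (exact permutation p = 0.6). Adjusted over these 3 differences every p was 0.6.

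**Figure D4:**
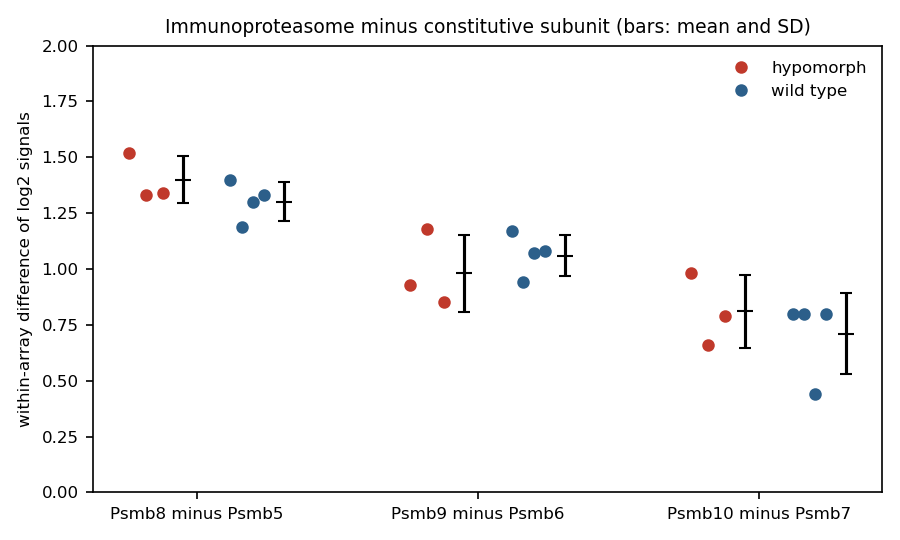
Within-array difference between the log2 signal of each immunoproteasome subunit and that of the constitutive subunit it replaces, 3 hypomorph arrays (red) left of 4 wild-type arrays (blue), with mean and SD. The groups overlap for all 3 pairs, with group differences of 0.10, -0.08 and 0.10, and heights cannot be compared between pairs.

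Hypomorph array 1 stood above the other arrays for most members. Of the 10 genes, 7 were highest on hypomorph array 1, namely H2-K1, H2-D1, B2m, Tap1, Tapbp, Psmb10 and Erap1, and the other 3 (Tap2, Psmb8 and Psmb9) were highest on wild-type array 1. The median deviation of the 10 genes from their wild-type means was 0.36 on hypomorph array 1, against -0.04 and -0.09 on hypomorph arrays 2 and 3. On the wild-type arrays it was 0.10, 0.01, -0.02 and -0.01. The median change over the 10 genes was 0.08, with 7 positive, beside a median of -0.00239 over the 12393 genes measured, of which 49.2% were positive. Without hypomorph array 1 the members' median was -0.06, and member probe sets higher at an unadjusted p under 0.05 numbered 3 in place of 6. The 6 heavy chain probe sets kept their direction, between 0.22 and 0.41 without that array. Hypomorph array 1 also had the lowest summed B cell markers, 7.21 beside 7.94 and 8.37 in the other hypomorphs and 8.22 to 8.42 in wild type. Its summed neutrophil markers were lowest as well, at 15.18 beside 15.41 and 15.89 in hypomorphs and 15.76 to 15.90 in wild type. Their part in the members' values was not tested.

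Among other genes of the pathway, 0 of 58 measured in 7 lists passed the adjusted threshold. Of 9 peptide loading helpers, 4 had a positive change and 5 a negative one, between -0.22 for the disulfide isomerase gene Pdia3 and 0.16 for the tapasin-related Tapbpl. The translocon channel subunit Sec61a1 and the sorting factor Bcap31 had 0.08 and -0.07. Of 4 proteasome activator and assembly genes, 1 was positive. Psme3, a nuclear activator, read 6.75, 7.06 and 6.64 in hypomorphs and 7.13, 7.23, 6.94 and 7.22 in wild type, a change of -0.32 (-0.59 to -0.04, limma adjusted p = 0.644). Its other probe sets gave -0.10 and 0.20. Psme4, Psme1 and the assembly factor Pomp had -0.05, -0.04 and 0.02. A probe set naming Psme2 and Psme2b gave -0.03.

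Among these lists the largest change was that of a regulator of class I genes. Ifngr2, the signalling chain of the interferon gamma receptor, read 7.78, 7.20 and 7.53 in hypomorphs, against 6.56, 6.65, 6.88 and 6.82 in wild type. All hypomorph arrays were above all wild-type arrays, with a change of 0.77 (0.44 to 1.11) or 1.71-fold (exact permutation p = 0.0286, limma adjusted p = 0.533). Its second, dimmer probe set gave 0.04 (-0.29 to 0.36). The transcription factors Irf2, Stat2 and Irf1 had 0.21 (-0.06 to 0.47), 0.21 (-0.11 to 0.52) and 0.13 (-0.24 to 0.49), and the receptor chain Ifnar2 had 0.13. Of 17 regulators measured, 9 were positive, with a median of 0.04.

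Of 11 nonclassical and class I-like genes measured alone, 8 had a positive change, with a median of 0.14, and 0 passed the adjusted threshold. Fcgrt, the neonatal Fc receptor, read 8.84, 8.95 and 8.70 in hypomorphs and 8.18, 8.48, 8.33 and 8.86 in wild type, a change of 0.37 (0.00 to 0.74, limma adjusted p = 0.644). The lipid-presenting Cd1d1, the formyl peptide-presenting H2-M3 and the metabolite-presenting Mr1 had 0.24, 0.16 and 0.21. Probe sets naming several class I genes gave 0.34 for H2-Q7 with H2-Q9, 0.27 for H2-Q4 with H2-Q6 and H2-Q8, 0.21 for H2-Q6 with H2-Q8, 0.07 for H2-T3 with H2-T18, 0.27 and 0.03 for H2-T23 with a pseudogene, and 0.11 and 0.13 for H2-T22 with H2-T10 and H2-T9. All had overlapping groups.

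Peptidases and cross-presentation genes were divided evenly. Of 6 peptidase genes 3 were positive, with bleomycin hydrolase (Blmh) at -0.15, the exopeptidase Tpp2 at 0.09, thimet oligopeptidase (Thop1) at -0.17 and the aminopeptidase Npepps at -0.14. Of 8 genes of cross-presentation, the loading of outside antigen onto class I, 4 were positive. The translocon subunit Sec61b was lower without overlap, at 10.49, 10.61 and 10.59 in hypomorphs and 10.83, 10.62, 10.79 and 10.64 in wild type (change -0.16, exact permutation p = 0.114, limma adjusted p = 0.652). The vesicle GTPase Rab27a, the SNARE protein Sec22b and Batf3, a transcription factor of cross-presenting dendritic cells, had 0.19, -0.08 and 0.09.

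The genes whose course over the 7 arrays was most like the members' median were sought among 6887 brighter genes, by Pearson r. The 5 with the highest r were Gtf2h1 (0.976), Tiprl (0.974), the proteasome subunit Psma7 (0.954), Tapbpl (0.953) and Clcc1 (0.949). All 5 were highest on hypomorph array 1. With 7 arrays that share this high array, the r values are a description without a test.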

How the data were processed

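Gene expression was measured on Affymetrix arrays (Mouse430A), 1 per sample, from 100 ng of total RNA extracted with Trizol, per the labels' protocols. The authors deposited log2 values, 1 per probe set and array, and the submitters' processing notes name Affymetrix Power Tools. How probes were summarised, background-corrected and normalized, and with which version, the sources used here do not say. The log2 scale was inferred from the deposited values. Of 22690 probe sets, 64 controls and 1 without values were left out. Symbols came from the array's annotation, updated by Entrez identifier. Of 22625 probe sets tested, 20379 name 1 gene, 691 several and 1555 none. Arrays have no read depth, and their number sets the precision.

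The test of 3 hypomorph against 4 wild-type arrays was limma's moderated test (version 3.58.1, under R 4.3.3, without a block). It was checked on simulated data and adjusted by Benjamini-Hochberg over all probe sets at 0.05. With 200 simulated probe sets changed, it recovered 35.5% of log2 changes of 0.5, 81.5% of 1 and 97.1% of 2. Confidence intervals are at 95% from this fit. Single values had exact two-sided permutation tests over 35 splits. Each gene was represented by its probe set of highest mean. "Without overlap" means every value of a group above or below every value of the other. All members were named, with the 3 constitutive subunits, Irf1 and up to 4 genes of smallest p per list. Members and lists were chosen with earlier results of these data known. Summed marker signals are log2 of summed linear values. The labels do not state whether replicate numbers pair arrays.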

Additional observations from a re-analysis of the deposited data

Results flagged for a closer look

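Among 60 sets of 4 wild-type values screened, 8 had 1 array far from the other 3 by Dixon's criterion, which chance alone meets in about 1 of 20 sets. Wild-type array 1 stood low for H2-D1 probe set 1451784_x_at, at 11.60 beside 12.00 to 12.07. It stood high for Tapbp probe set 1421812_at (10.46 beside 10.26 to 10.30), Psme1 (11.12 beside 10.99 to 11.01) and Blmh (8.77 beside 8.56 to 8.57). Wild-type array 3 stood low for Tapbpl (7.57 beside 7.66 to 7.68), Pomp (10.21 beside 10.34 to 10.35) and the within-array difference of Psmb10 minus Psmb7 (0.44 beside 0.80). Wild-type array 2 stood high for Thop1, at 5.65 beside 5.15, 5.16 and 5.20.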

How the results depend on the processing

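The 26 member probe sets were refitted with centred array medians, quantile normalization, a trended and robust variance, array weights, the replicate block, 32 added to linear values, and each array left out, and 20 of them also with dim probe sets left out, a setting that removes the other 6. In the settings run for each, 18 kept their sign and 8 did not, and no member reached an adjusted p of 0.05 in any (lowest adjusted p = 0.128). The 6 heavy chain probe sets without overlap stayed positive, between 0.16 and 0.67, the lowest being the mean over all H2-D1 probe sets. Leaving out single arrays turned the sign for Tap1 1416016_at (-0.16 to 0.22), 1448177_at (-0.09 to 0.17), 1449803_x_at (-0.02 to 0.01) and 1420274_at (-0.08 to 0.10), Tapbp 1421812_at (-0.05 to 0.18), Psmb8 (-0.08 to 0.01), Psmb10 (-0.03 to 0.24) and Erap1 (-0.15 to 0.09). In all but Tap1 1449803_x_at and 1420274_at and Psmb8, hypomorph array 1 was among the arrays whose removal did so. For those 3 it was wild-type array 4, hypomorph array 3 and wild-type array 1. The members' median ran from -0.06 (without hypomorph array 1) to 0.13, member genes at an unadjusted p under 0.05 from 1 (without hypomorph array 1 or 3) to 3, and higher member probe sets at that p from 3 (without hypomorph array 1) to 7. With means over all probe sets of a gene, 1 member gene had an unadjusted p under 0.05 in place of 2. Over all 12393 genes measured, 443 were higher and 445 lower at an unadjusted p under 0.05 in the main limma fit. The replicate block was fitted without wild-type array 4, which has no same-numbered hypomorph array. It gave a median of 0.05, 5 higher member probe sets and 0.01 for Tap1 1449803_x_at, the reverse of its sign. Leaving out wild-type array 4 without a block gave the same median and Tap1 value, and 6 higher member probe sets. No member passed the adjusted threshold in either fit. Deviations of same-numbered arrays correlated at 0.07, 0.07 and 0.409, and those of differently numbered arrays at -0.246 to 0.144. Taken from the means of 3 arrays per group, these values cannot decide whether arrays were paired. No label states a pairing, so the main fit had no block. Over the whole array, probe sets past the adjusted threshold numbered 5 with centred medians, 5 with trended and robust variance, 5 with dim probe sets left out and 3 with array weights, and 0 to 2 with single arrays left out. Those at an unadjusted p under 0.05 numbered 984 higher and 755 lower. They were 559 and 498 with dim probe sets left out, where fewer were tested, and 598 to 1411 higher and 431 to 1578 lower with single arrays left out. H2-D1 1425614_x_at came to 0 without hypomorph array 1. The causes were not tested. Without single arrays, the group difference of Psmb8 minus Psmb5 ran from 0.03 to 0.13, of Psmb9 minus Psmb6 from -0.18 to -0.01 and of Psmb10 minus Psmb7 from 0.01 to 0.18.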

Other observations

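Other probe sets of pathway genes differed from those of highest mean. A second probe set of Bcap31, which sorts membrane proteins out of the endoplasmic reticulum, read 9.27, 9.25 and 9.30 in hypomorphs and 9.55, 9.43, 9.50 and 9.46 in wild type. Its change was -0.21 (-0.35 to -0.07, limma adjusted p = 0.644), without overlap, beside -0.07 for the brighter one. A probe set of Jak1, a kinase of interferon receptors, read 9.33, 9.47 and 8.64 in hypomorphs and 8.77, 8.14, 8.77 and 8.48 in wild type. Its change was 0.61 (0.07 to 1.15, limma adjusted p = 0.644) with overlapping groups. The Jak1 probe set of highest mean gave 0.06 and the remaining one -0.01 (-0.26 to 0.23). A second probe set of Stat2 gave 0.50 (0.03 to 0.97, limma adjusted p = 0.644) with overlapping groups, beside 0.21. The 5 probe sets of Tpp2, a cytosolic peptidase, ran from -0.15 to 0.28, so its direction depended on the probe set. None passed the adjusted threshold, and these genes were picked after their values were seen.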
